A study of Homo sapiens with 6 samples.

Results

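Receptor tyrosine kinase genes were taken as the protein-coding rows of the normalized count table whose names belong to the EGF, FGF, TAM, MET, insulin-like growth factor, PDGF and CSF1, VEGF, ephrin, discoidin-domain, ROR, RYK, PTK7, TIE, ALK and LTK, neurotrophin, RET, ROS1 and lemur tail kinase receptors. The rule found 35 genes among the 22794 genes of the table. Names of the rule that matched no row were not analysed here. Poly(A) RNA had been sequenced from CAL-51, an established human breast carcinoma cell line, after transfection with a plasmid that carries a reporter of p27 fused to the yellow fluorescent protein mVenus. Cells sorted as p27-positive gave 3 libraries and cells sorted as p27-negative gave 3 libraries, and both groups had been through the same transfection. p27, the product of CDKN1B, is an inhibitor of cyclin-dependent kinases that accumulates in cells that leave the cell cycle. The reporter marks the level of the fusion protein, so a response to the amount of plasmid in a cell and the p27 state cannot be told apart. No label names separate cultures, so every p-value rests on the spread between libraries alone, and that spread may be technical.

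Receptor tyrosine kinases are membrane proteins that bind a growth factor outside the cell, pair up, and phosphorylate tyrosines on their own tails, where adaptor proteins dock and start the RAS to ERK and the PI3 kinase to AKT cascades. Phosphatases, ubiquitin ligases and proteases that cut off the outer domain bring the signal to an end. In breast epithelium ERBB2 is known as an amplified oncogene of a class of breast cancers, EGFR as a receptor often high in tumours without hormone receptors, and AXL and EPHA2 as receptors of invasive, mesenchymal-like cells.

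The libraries held 23297719, 24033087 and 26735554 reads in p27-positive cells and 28609257, 22894616 and 22216934 reads in p27-negative cells. On the log2 scale the first principal component, with 55.2% of the variance, separated the groups, and the second, with 14.4%, set p27-negative replicate 3 apart from replicates 1 and 2. The proliferation gene MKI67 averaged 6153 ± 170 normalized counts in p27-positive cells and 21160 ± 410 in p27-negative cells (SD, n = 3 each), a log2 fold change of -1.78 ± 0.03 (SE). CDKN1B itself averaged 1295 ± 75.4 normalized counts in p27-positive cells and 1659 ± 153 in p27-negative cells, a log2 fold change of -0.35 ± 0.07 (SE, adjusted p = 6.84e-05), which did not pass in the FPKM table (adjusted p = 0.0695). The count cannot tell reads of the endogenous gene from reads of a plasmid. Epithelial markers summed to 144337 to 149950 normalized counts in p27-positive libraries and 93363 to 94987 in p27-negative libraries, most of it from the keratin genes KRT8, KRT18 and KRT19, while CDH1, the gene of E-cadherin, was listed at 0, 6.72 and 6.95 normalized counts in p27-positive libraries and at 0 in all 3 p27-negative libraries. EPCAM, an epithelial adhesion gene of the same list, was called lower, at 590 ± 68.8 normalized counts in p27-positive cells and 725 ± 81.3 in p27-negative cells (log2 fold change -0.30 ± 0.10, adjusted p = 0.0161). The EPCAM call was lost with upper-quartile rescaling, with scaling to the library total, in the FPKM table and without the trended prior. It was also lost without p27-positive replicate 3, without p27-negative replicate 1 and without p27-negative replicate 2. Mesenchymal markers summed to 2988 to 3127 normalized counts in p27-positive libraries and 3503 to 3884 in p27-negative libraries, led by VIM, the gene of vimentin, and ZEB1, a repressor of epithelial genes. The VIM decrease of -0.24 was lost under quantile normalization, upper-quartile rescaling, scaling to the library total and in the FPKM table. FN1 of the same list went the other way, at 43.7 ± 11.3 normalized counts in p27-positive cells and 28.6 ± 11.3 in p27-negative cells, and did not pass. CDH2 averaged 8.71 normalized counts in p27-positive cells and 7.12 in p27-negative cells and was not tested. Hormone receptor markers summed to 3.02 to 25.9 normalized counts in p27-positive libraries and 0 to 12.5 in p27-negative libraries. Leukocyte markers, 3 of whose 7 genes were found, summed to 78.7 to 129.8 in p27-positive libraries and 47.9 to 97.0 in p27-negative libraries. Most of this was ITGAM, which averaged 90.2 normalized counts in p27-positive cells and 44.7 in p27-negative cells. PTPRC of the same list went the other way, at 15.8 in p27-positive cells and 24.2 in p27-negative cells, and did not pass. Neural and Schwann markers, 4 of whose 6 genes were found, summed to 46.9 to 74.4 in p27-positive libraries and 17.8 to 38.8 in p27-negative libraries.

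Values in a group are counts divided by a size factor for each library, called normalized counts here, and a fold change is the difference of the group means of log2(normalized count + 1), p27-positive minus p27-negative, with its standard error. A gene was called when its Benjamini-Hochberg adjusted p from limma, taken over 15950 genes that averaged 10 or more normalized counts, was under 0.05. Of the 35 receptor genes 28 reached that level, PDGFRA only through its p27-positive libraries. In p27-positive cells 12 were higher and 9 lower, and 7 did not pass. This is 75% of the 28 genes, against 52.6% of all genes tested (25.5% higher and 27.1% lower). Among the 24 receptor genes that averaged 100 or more normalized counts, 9 were higher and 9 lower, where 27.7% and 37.9% of all genes at that level were called in these directions. The median log2 fold change of the 28 genes was 0.08, against 0.03 over all genes tested, and their median absolute change was 0.61, against 0.38. Changes of at least 2-fold were called in 5 genes that were higher, PDGFRA among them, and 1 that was lower, where the background was 9.3% and 2.9%. The libraries of the groups did not overlap in 12 genes that were higher and 10 that were lower in p27-positive cells, where 28.5% and 29.1% of all genes tested (57.7% in either direction) showed this. In bulk RNA a lower count can come from fewer cells that express a gene or from less RNA per cell, and the 2 cannot be told apart. Scaling to the library total raises the median of all genes by 0.13 on the log2 scale and upper-quartile rescaling raises it by 0.11; with the library total, 17 receptor genes were higher and 8 lower.

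**Figure D1:**
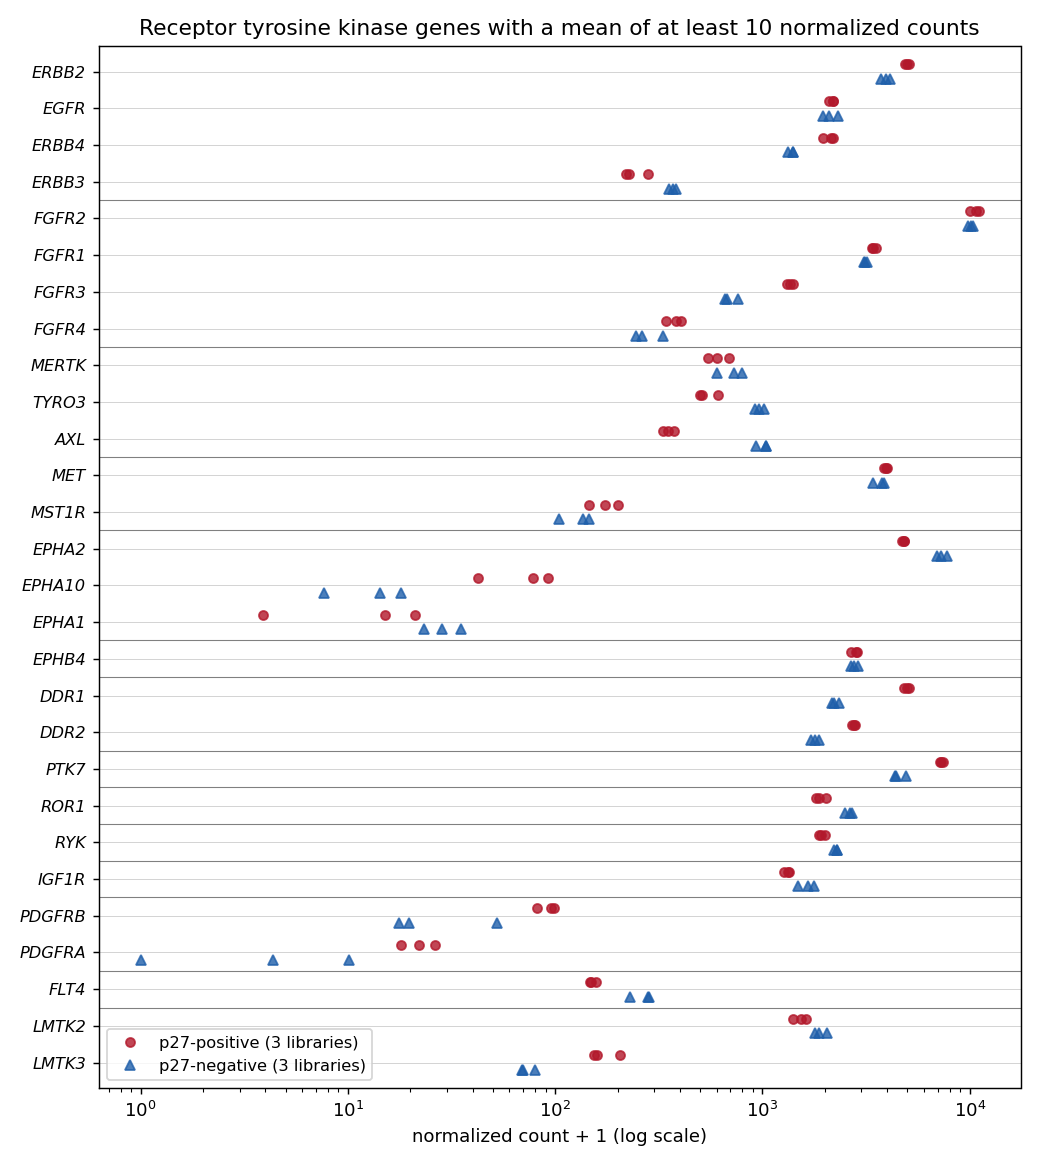
Normalized count plus 1 on a log axis for the 28 receptor tyrosine kinase genes that averaged 10 or more normalized counts, grouped by family. Circles are the 3 p27-positive libraries and triangles the 3 p27-negative libraries. The circles of AXL and TYRO3 lie left of the triangles, those of DDR1, FGFR3 and LMTK3 lie right of them, and those of EGFR, MET, FGFR2, EPHB4 and MERTK mix with them.

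**Figure D2:**
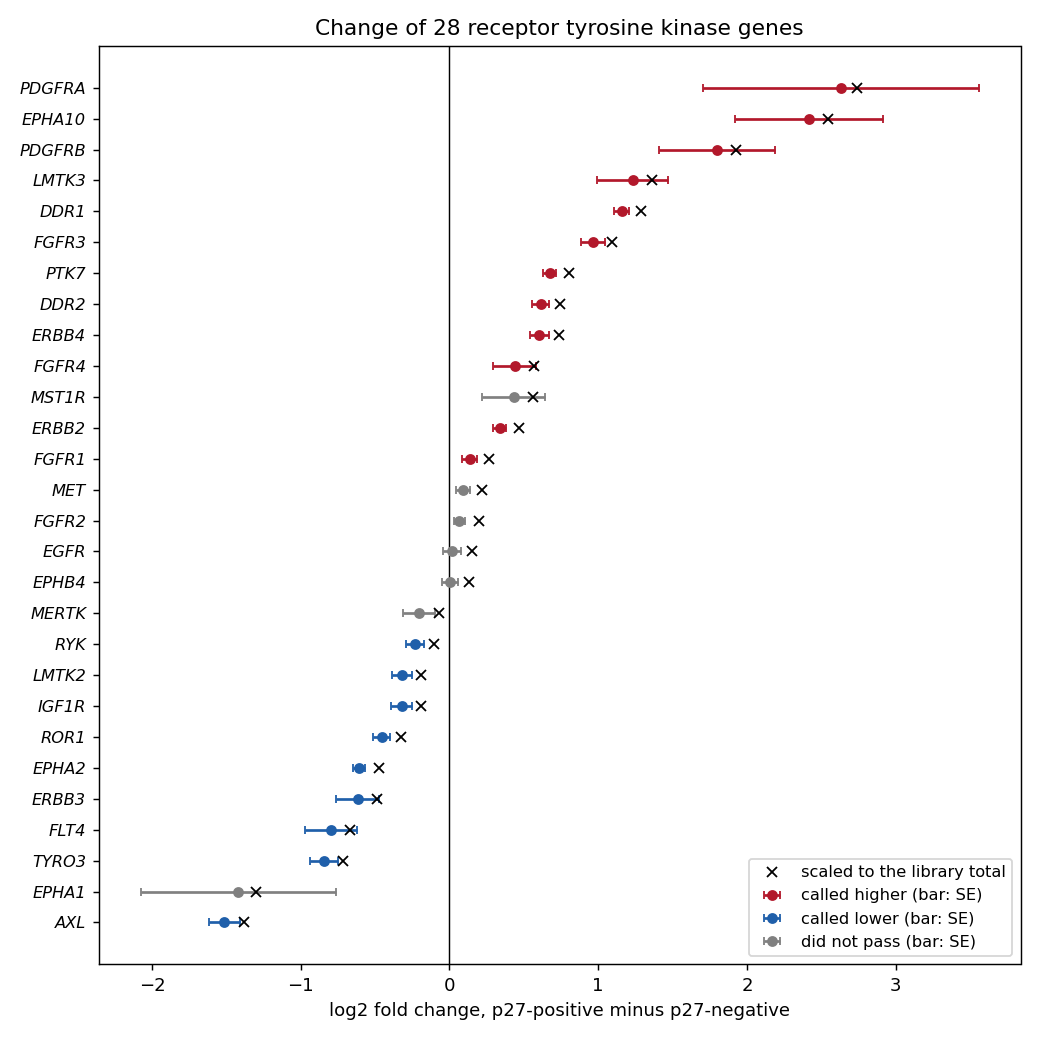
Log2 fold change (p27-positive minus p27-negative) of the same 28 genes, with the standard error as a bar and the value after scaling to the library total as a cross. Changes run from -1.51 for AXL to 2.63 for PDGFRA, and every cross lies to the right of its circle.

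Promoter sequence was looked up for the genes that moved, since the RNA of these genes differed between the groups while no binding or chromatin data were measured. RefSeq windows from 250 bases before to 50 bases after a start site (GRCh38.p14) matched 31 of the 35 genes, and ERBB3, FLT4, FGFR1 and EPHA10 had none. Windows to show were picked from called genes averaging 500 or more normalized counts whose listed start site lay within 100 bases of the gene's start. Among these genes AXL and EPHA2 had the largest decreases and FGFR3 and PTK7 the largest increases. TYRO3 fell more than EPHA2 and DDR1 rose more than FGFR3, but their listed start sites lay 1537 and 4549 bases from the gene's start. The windows shown are written 5′ to 3′ on the gene's strand, with capitals for the GC box GGGCGG on either strand.
AXL, chr19:41218973-41219272, plus strand: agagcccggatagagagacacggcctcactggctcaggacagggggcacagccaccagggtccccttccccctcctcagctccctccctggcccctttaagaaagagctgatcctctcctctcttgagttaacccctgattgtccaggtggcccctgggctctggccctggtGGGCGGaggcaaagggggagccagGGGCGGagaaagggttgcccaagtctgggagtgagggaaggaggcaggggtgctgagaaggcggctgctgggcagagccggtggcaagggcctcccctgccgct
EPHA2, chr1:16156020-16156319, minus strand: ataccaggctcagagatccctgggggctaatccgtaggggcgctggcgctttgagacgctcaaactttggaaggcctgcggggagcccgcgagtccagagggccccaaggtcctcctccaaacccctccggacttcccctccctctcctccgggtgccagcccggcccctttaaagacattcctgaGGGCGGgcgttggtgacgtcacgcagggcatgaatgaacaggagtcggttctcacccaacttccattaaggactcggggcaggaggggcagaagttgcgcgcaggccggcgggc
FGFR3, chr4:1793043-1793342, plus strand: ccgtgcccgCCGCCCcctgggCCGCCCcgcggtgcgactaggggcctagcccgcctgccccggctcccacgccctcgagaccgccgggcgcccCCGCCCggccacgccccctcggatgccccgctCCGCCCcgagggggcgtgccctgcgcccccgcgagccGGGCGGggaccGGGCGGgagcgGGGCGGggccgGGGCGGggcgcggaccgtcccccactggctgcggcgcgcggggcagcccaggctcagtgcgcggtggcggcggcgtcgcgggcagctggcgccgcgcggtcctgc
PTK7, chr6:43076064-43076363, plus strand: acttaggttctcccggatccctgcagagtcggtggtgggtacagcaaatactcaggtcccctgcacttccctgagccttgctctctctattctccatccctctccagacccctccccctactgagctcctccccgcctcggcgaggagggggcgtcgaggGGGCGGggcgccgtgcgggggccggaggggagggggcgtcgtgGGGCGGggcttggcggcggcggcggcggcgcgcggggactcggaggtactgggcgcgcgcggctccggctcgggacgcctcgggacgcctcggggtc
The windows are rich in G and C, at 66% in AXL, 64.3% in EPHA2, 86.3% in FGFR3 and 73.3% in PTK7, against a median of 69% over the 31 receptor genes and 58.7% over all 35116 windows. The GC box was found in 24 of the 31, in 6 of 10 called higher and 6 of 7 called lower, where 45.0% of all windows hold it. The AP-1 motif TGANTCA was found in 5 of 31 (DDR2, PDGFRA, CSF1R, TYRO3 and ERBB2), against 7.71% of all windows, and the TEAD motif CATTCC in 2 of 31 (EPHA2 and FGFR4), against 14.0%. Both strands were searched, no overlap between motifs was removed, and a match is a description of the letters in the window.

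The TAM receptors AXL, TYRO3 and MERTK bind the vitamin K-dependent proteins GAS6 and PROS1, and are known for the clearance of dying cells and for survival signals. AXL (ENSG00000167601, hg38 chromosome 19, 41219223 to 41261766, plus strand) had 329, 373 and 347 normalized counts in p27-positive libraries and 1034, 1034 and 934 in p27-negative libraries. Every p27-positive library thus lay below every p27-negative one. The log2 fold change was -1.51 ± 0.10 (SE, adjusted p = 4.09e-16), the largest decrease among the called receptor genes. TYRO3 (chromosome 15, 41557675 to 41583589, plus strand), the TAM receptor known best from brain, had 497, 512 and 612 normalized counts in p27-positive libraries and 1020, 918 and 963 in p27-negative libraries, for a log2 fold change of -0.84 ± 0.10 (adjusted p = 9.47e-10). MERTK, the phagocyte receptor of the family, had 689, 603 and 547 normalized counts in p27-positive libraries and 604, 724 and 793 in p27-negative libraries. These values overlap, and the difference of -0.20 ± 0.11, with a 95% interval of -0.42 to 0.01, did not pass (adjusted p = 0.108). It passed as lower without p27-positive replicate 1 (-0.29, adjusted p = 0.0436) and without p27-negative replicate 1 (-0.31, adjusted p = 0.0185), so MERTK is not shown to differ from AXL and TYRO3 in direction.

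The genes of both TAM ligands went the other way. GAS6 had 260, 311 and 348 normalized counts in p27-positive libraries and 91.7, 63.4 and 95.9 in p27-negative libraries, for a log2 fold change of 1.87 ± 0.21 (adjusted p = 3.89e-10). PROS1, the gene of the anticoagulant protein S, had 647, 567 and 537 normalized counts in p27-positive libraries and 239, 236 and 261 in p27-negative libraries, for a log2 fold change of 1.24 ± 0.13 (adjusted p = 6.26e-11). Within a library the ratio of GAS6 to AXL counts, which does not depend on scaling between libraries, averaged 0.875 ± 0.113 in p27-positive cells and 0.0842 ± 0.0210 in p27-negative cells (SD, n = 3 each). The ratio of PROS1 to AXL averaged 1.68 ± 0.251 in p27-positive cells and 0.247 ± 0.0290 in p27-negative cells.

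**Figure D3:**
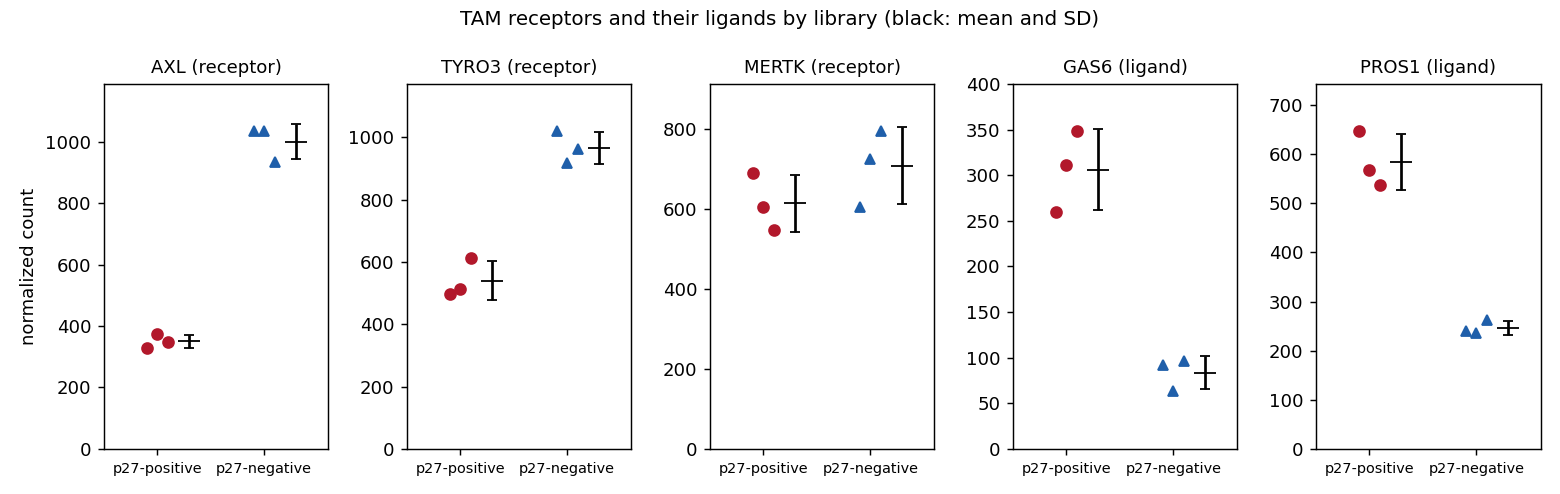
Normalized count of AXL, TYRO3, MERTK, GAS6 and PROS1 in each library, on axes that start at 0. Circles are p27-positive and triangles p27-negative libraries, and black bars give the mean and SD. AXL averaged 350 in p27-positive libraries and 1001 in p27-negative libraries, GAS6 averaged 306 in p27-positive libraries and 83.7 in p27-negative libraries, and the MERTK values of the groups overlap.

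The ERBB family holds the EGF receptor, ERBB2, which has no known ligand of its own, ERBB3, whose kinase domain is nearly inactive, and ERBB4, and the neuregulins bind ERBB3 and ERBB4. ERBB2 (chromosome 17, 39687914 to 39730426, plus strand) had 5062, 4984 and 4875 normalized counts in p27-positive libraries and 3745, 4110 and 3961 in p27-negative libraries, for a log2 fold change of 0.34 ± 0.05 (adjusted p = 4.44e-08). It overlaps MIEN1 and PGAP3 on the opposite strand, whose means over the 6 libraries were 577 and 252 normalized counts, and the strand setting of the counting is not given in the sources used here. ERBB4 (chromosome 2, 211375717 to 212538841, minus strand) had 2194, 1960 and 2140 normalized counts in p27-positive libraries and 1407, 1403 and 1329 in p27-negative libraries, for a log2 fold change of 0.60 ± 0.06 (adjusted p = 2.02e-10). ERBB3 (chromosome 12, 56076799 to 56103505, plus strand) went down, with 279, 225 and 219 normalized counts in p27-positive libraries and 370, 381 and 353 in p27-negative libraries, for a log2 fold change of -0.62 ± 0.14 (adjusted p = 0.000414). The ERBB3 call did not pass in the FPKM table. The ratio of ERBB4 to ERBB3 counts averaged 8.78 ± 0.957 in p27-positive cells and 3.75 ± 0.0582 in p27-negative cells (SD, n = 3 each).

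EGFR, by contrast, showed no difference that passed. It had 2189, 2184 and 2089 normalized counts in p27-positive libraries and 1967, 2325 and 2103 in p27-negative libraries, for a log2 fold change of 0.02 with a 95% interval of -0.11 to 0.14 (adjusted p = 0.83). With scaling to the library total it came to 0.15 and passed (adjusted p = 0.039). Of the ligands, NRG1, a neuregulin, had 216, 134 and 219 normalized counts in p27-positive libraries and 287, 336 and 328 in p27-negative libraries, for a log2 fold change of -0.77 ± 0.17 (adjusted p = 0.000255). NRG2 was lower as well, at 610 ± 52.2 normalized counts in p27-positive cells and 782 ± 35.7 in p27-negative cells (SD, n = 3 each), a log2 fold change of -0.36 that did not pass in the FPKM table. HBEGF, a membrane-bound ligand of EGFR and ERBB4, averaged 116 ± 15.2 normalized counts in p27-positive cells and 162 ± 29.6 in p27-negative cells and did not pass (adjusted p = 0.0708).

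The FGF receptors FGFR1 to FGFR4 bind fibroblast growth factors together with heparan sulphate. FGFR3 (chromosome 4, 1793293 to 1808872, plus strand) changed most, with 1360, 1306 and 1408 normalized counts in p27-positive libraries and 661, 757 and 670 in p27-negative libraries, for a log2 fold change of 0.97 ± 0.08 (adjusted p = 3.85e-13). FGFR4 (chromosome 5, 177086905 to 177098144, plus strand), a receptor for hormone-like FGF19 in liver, had 383, 402 and 342 normalized counts in p27-positive libraries and 246, 331 and 260 in p27-negative libraries, for a log2 fold change of 0.44 ± 0.14 (adjusted p = 0.00917). Its adjusted p was 0.0535 without p27-positive replicate 2 and 0.0521 without p27-negative replicate 1. FGFR1 (chromosome 8) had 3544, 3388 and 3410 normalized counts in p27-positive libraries and 3201, 3125 and 3084 in p27-negative libraries, for a log2 fold change of 0.14 ± 0.05 (adjusted p = 0.0186). Its adjusted p was 0.0773 without p27-positive replicate 1 and 0.0544 without p27-negative replicate 3. FGFR2, a receptor gene linked to inherited breast cancer risk, had 11030, 10066 and 10699 normalized counts in p27-positive libraries and 9844, 10392 and 10118 in p27-negative libraries. These values overlap, and the log2 fold change of 0.07, with a 95% interval of -0.01 to 0.14, did not pass (adjusted p = 0.127), although it reached 0.20 with scaling to the library total (adjusted p = 7.46e-06). FGFR2 also passed as higher under quantile normalization, with upper-quartile rescaling, in the FPKM table and without p27-positive replicate 2.

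FGF18, a growth factor of bone and cartilage that binds FGFR3, had 2432, 2548 and 2527 normalized counts in p27-positive libraries and 4561, 4786 and 4790 in p27-negative libraries, for a log2 fold change of -0.91 ± 0.05 (adjusted p = 2.46e-19). Receptor and ligand thus moved in opposite directions. FGF2, a broadly acting ligand of the family, averaged 1574 ± 15.1 normalized counts in p27-positive cells and 1588 ± 74.2 in p27-negative cells (SD, n = 3 each) and did not pass (adjusted p = 0.896).

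The ephrin receptors are the largest family of receptor tyrosine kinases, bind ephrins on neighbouring cells, and guide cell sorting and repulsion. EPHA2 (ENSG00000142627, chromosome 1, 16124337 to 16156069, minus strand) had the highest level per length of the 35 genes in both groups. It had 4824, 4734 and 4840 normalized counts in p27-positive libraries and 6937, 7241 and 7785 in p27-negative libraries, for a log2 fold change of -0.61 ± 0.04 (adjusted p = 1.39e-15). EPHB4, known from the sorting of arteries and veins, had 2848, 2832 and 2668 normalized counts in p27-positive libraries and 2668, 2893 and 2764 in p27-negative libraries. The log2 fold change of EPHB4 was 0.00, with a 95% interval of -0.10 to 0.11 (adjusted p = 0.958), and 0.13 with scaling to the library total, where it passed (adjusted p = 0.0304). It also passed under quantile normalization. EPHB4 overlaps SLC12A9 on the opposite strand, whose mean was 1061 normalized counts against 2779 for EPHB4. EPHA10, a receptor with an inactive kinase domain, was low, with 77.4, 41.2 and 91.2 normalized counts in p27-positive libraries and 13.3, 6.68 and 17.1 in p27-negative libraries, for a log2 fold change of 2.42 ± 0.50 (adjusted p = 6.9e-05). Even its lowest p27-positive library lay above its highest p27-negative one. EPHA1 had 14.1, 2.88 and 20.0 normalized counts in p27-positive libraries and 27.6, 22.3 and 34.2 in p27-negative libraries and did not pass (log2 fold change -1.42 ± 0.66, adjusted p = 0.068). Without p27-positive replicate 2, the library with 3 reads, the change was -0.69, and without p27-positive replicate 3 it was -1.90 and passed (adjusted p = 0.0341), as it did under quantile normalization (-2.08, adjusted p = 0.0156). It overlaps ZYX on the opposite strand, whose mean was 4114 normalized counts against 20.2 for EPHA1, so reads of the 2 genes may not have been separated.

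Among the ephrins, EFNB1, a transmembrane ligand of EPHB receptors, had 3237, 2964 and 3187 normalized counts in p27-positive libraries and 1414, 1332 and 1398 in p27-negative libraries, for a log2 fold change of 1.18 ± 0.06 (adjusted p = 3.99e-20). EFNA1, a ligand of EPHA2 that is held to the membrane by a lipid anchor, averaged 233 ± 30.8 normalized counts in p27-positive cells and 128 ± 57.0 in p27-negative cells (SD, n = 3 each), a log2 fold change of 0.98 ± 0.24 (adjusted p = 0.000711). Its p27-negative libraries were uneven, at 62.3, 166 and 155 normalized counts. Without p27-negative replicate 1 the EFNA1 change was 0.53 (adjusted p = 0.0227), and without the trended prior it did not pass (adjusted p = 0.112). EFNA4 and EFNB3 were also called higher, with log2 fold changes of 0.68 and 0.36. The EFNA4 call was lost under quantile normalization (adjusted p = 0.185) and without p27-negative replicate 3 (adjusted p = 0.0594), and the EFNB3 call without the trended prior (adjusted p = 0.0587). EFNB2 did not pass, at 1963 ± 110 normalized counts in p27-positive cells and 2077 ± 97.9 in p27-negative cells. The ratio of EFNB1 to EPHB4 counts averaged 1.13 ± 0.0745 in p27-positive cells and 0.499 ± 0.0354 in p27-negative cells.

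MET, the receptor of hepatocyte growth factor, had 3993, 3834 and 3933 normalized counts in p27-positive libraries and 3764, 3863 and 3428 in p27-negative libraries. These values overlap, and the log2 fold change of 0.09, with a 95% interval of -0.01 to 0.19, did not pass (adjusted p = 0.122). MST1R, the related receptor of macrophage-stimulating protein, had 199, 174 and 144 normalized counts in p27-positive libraries and 144, 136 and 103 in p27-negative libraries and did not pass either (0.43 ± 0.21, adjusted p = 0.0839). With scaling to the library total both passed as higher, at 0.22 for MET and 0.56 for MST1R. Both also passed with upper-quartile rescaling, and MET under quantile normalization and in the FPKM table. The ligand gene of MST1R did change: MST1 had 220, 194 and 241 normalized counts in p27-positive libraries and 73.9, 60.1 and 78.8 in p27-negative libraries, for a log2 fold change of 1.61 ± 0.23 (adjusted p = 8.47e-08).

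Both discoidin-domain receptors, which bind collagen rather than a soluble factor, were higher in p27-positive cells. DDR1 (ENSG00000204580, chromosome 6, 30876421 to 30900156, plus strand), the epithelial member, had 5114, 4839 and 5002 normalized counts in p27-positive libraries and 2212, 2326 and 2166 in p27-negative libraries. The lowest p27-positive library lay far above the highest p27-negative library. The log2 fold change was 1.16 ± 0.05 (adjusted p = 2.11e-22), the smallest p among the receptor genes. DDR2 (chromosome 1, 162631373 to 162787405, plus strand), the mesenchymal member, had 2708, 2780 and 2767 normalized counts in p27-positive libraries and 1720, 1882 and 1799 in p27-negative libraries, for a log2 fold change of 0.61 ± 0.06 (adjusted p = 5.55e-12). The gene of a fibrillar collagen to which these receptors bind, COL3A1, averaged 5198 ± 247 normalized counts in p27-positive cells and 1508 ± 55.6 in p27-negative cells (SD, n = 3 each).

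PTK7, ROR1 and RYK are receptors or co-receptors of Wnt signalling whose kinase domains are thought to have little or no activity. PTK7 (ENSG00000112655, chromosome 6, 43076307 to 43161719, plus strand), a gene of planar cell polarity, had 7150, 7252 and 7421 normalized counts in p27-positive libraries and 4935, 4343 and 4416 in p27-negative libraries, for a log2 fold change of 0.67 ± 0.04 (adjusted p = 1.86e-16). ROR1 (chromosome 1, 63774017 to 64181498, plus strand), a WNT5A receptor of embryonic tissue, went the other way, with 2019, 1879 and 1813 normalized counts in p27-positive libraries and 2494, 2697 and 2643 in p27-negative libraries, for a log2 fold change of -0.46 ± 0.06 (adjusted p = 1.54e-08). RYK had 1997, 1862 and 1912 normalized counts in p27-positive libraries and 2283, 2281 and 2215 in p27-negative libraries, for a log2 fold change of -0.23 ± 0.06 (adjusted p = 0.000868). The RYK decrease did not pass under quantile normalization, upper-quartile rescaling, library total scaling or in the FPKM table, where it lay between -0.10 and -0.12. IGF1R, the receptor of the insulin-like growth factors, had 1320, 1345 and 1262 normalized counts in p27-positive libraries and 1491, 1663 and 1763 in p27-negative libraries, for a log2 fold change of -0.32 ± 0.07 (adjusted p = 0.000181) that did not pass in the FPKM table.

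The lemur tail kinases, which sit in the membrane and phosphorylate serine and threonine despite their place in this list, moved apart. LMTK3 had 158, 204 and 153 normalized counts in p27-positive libraries and 68.5, 69.0 and 78.8 in p27-negative libraries, for a log2 fold change of 1.23 ± 0.24 (adjusted p = 2.94e-05). LMTK2, a kinase of endosome traffic, had 1405, 1537 and 1618 normalized counts in p27-positive libraries and 2050, 1863 and 1782 in p27-negative libraries, for a log2 fold change of -0.32 ± 0.07 (adjusted p = 0.000112) that did not pass in the FPKM table.

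The PDGF receptors, which are known from fibroblasts, pericytes and smooth muscle, were both low and higher in p27-positive cells. PDGFRB had 97.6, 80.6 and 94.6 normalized counts in p27-positive libraries and 18.7, 16.7 and 51.4 in p27-negative libraries, for a log2 fold change of 1.80 ± 0.39 (adjusted p = 0.000162). PDGFRA averaged 21.1 normalized counts in p27-positive cells and 4.16 in p27-negative cells, so it reached the filter only through its p27-positive libraries. PDGFRA had 17, 22 and 29 reads in p27-positive libraries and 0, 3 and 8 reads in p27-negative libraries, and its fitted log2 fold change of 2.63 ± 0.93 (adjusted p = 0.0157) rests on few reads. Without p27-negative replicate 1, the library with 0 reads, it was 1.72 and did not pass (adjusted p = 0.0637), and without p27-negative replicate 3 it was 3.39. It did not pass either without p27-positive replicate 2 or without p27-positive replicate 3. Among genes with a mean of 10 to 100 normalized counts, where PDGFRA, PDGFRB, EPHA10 and EPHA1 lie, 20.6% were called higher and 2.74% lower.

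Some markers of stromal cells moved with these genes. The stromal list, 4 of whose 6 genes were found, summed to 5257 to 5722 normalized counts in p27-positive libraries and 1549 to 1677 in p27-negative libraries, and COL3A1, COL1A1 and ACTA2 were each called higher. ACTA2, the smooth muscle actin gene, had 108, 114 and 146 normalized counts in p27-positive libraries and 24.9, 13.4 and 11.4 in p27-negative libraries. COL1A2 of the same list lay below the filter and was not tested. It had 28, 0 and 9 reads in p27-positive libraries and 0, 0 and 9 reads in p27-negative libraries, with overlapping values. DCN and LUM, the other genes of the list, matched no row. The part of stromal cells in the PDGFRA and PDGFRB differences was not tested.

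The genes of the PDGF ligands did not move together. PDGFB had 1111, 1011 and 1132 normalized counts in p27-positive libraries and 2547, 2621 and 2602 in p27-negative libraries, for a log2 fold change of -1.26 ± 0.06 (adjusted p = 8.32e-20). PDGFC averaged 4415 ± 158 normalized counts in p27-positive cells and 6041 ± 318 in p27-negative cells (SD, n = 3 each), a log2 fold change of -0.45 ± 0.04. PDGFD and PDGFA were higher, with log2 fold changes of 0.70 ± 0.08 and 2.36 ± 0.53, PDGFD at 1435 ± 74.0 normalized counts in p27-positive cells and 887 ± 74.5 in p27-negative cells, and PDGFA at 53.8 ± 8.47 normalized counts in p27-positive cells and 10.3 ± 4.72 in p27-negative cells.

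FLT4, the VEGFR3 gene of lymphatic endothelium, was lower, with 157, 148 and 147 normalized counts in p27-positive libraries and 229, 283 and 279 in p27-negative libraries, for a log2 fold change of -0.80 ± 0.18 (adjusted p = 0.00018). TIE1, an endothelial receptor of the angiopoietin system, lay below the filter, with 9, 9 and 20 reads in p27-positive libraries and 0, 2 and 0 reads in p27-negative libraries. The endothelial list, 4 of whose 5 genes were found, summed to 4377 to 4684 normalized counts in p27-positive libraries and 2761 to 2884 in p27-negative libraries. CDH5, the gene of VE-cadherin, made up most of it, at 2911 ± 155 normalized counts in p27-positive cells and 2124 ± 45.1 in p27-negative cells (SD, n = 3 each). VWF, another endothelial gene of the list, changed more, with log2 fold changes of 1.24 ± 0.08 for VWF and 0.45 ± 0.06 for CDH5. It averaged 1626 ± 65.3 normalized counts in p27-positive cells and 686 ± 24.0 in p27-negative cells. PECAM1, a defining gene of that cell type, was near 0, with 3.02, 0 and 6.95 normalized counts in p27-positive libraries and 8.90, 0 and 0 in p27-negative libraries. The part of endothelial cells in the FLT4 and TIE1 values was not tested. The ligand list covers the VEGF family as a whole and is not limited to ligands of FLT4. VEGFD lay below the filter, with 9, 9 and 12 reads in p27-positive libraries and 5, 0 and 6 reads in p27-negative libraries. VEGFB was lower in p27-positive cells with a log2 fold change of -0.27, a call that was lost with library total scaling. VEGFA, the main angiogenic factor, averaged 1721 ± 32.1 normalized counts in p27-positive cells and 1552 ± 92.9 in p27-negative cells and did not pass (adjusted p = 0.0516). With upper-quartile rescaling and with library total scaling VEGFA passed as higher.

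The 7 genes below the filter were TIE1, EPHB1, EPHB2, EPHB3, EPHA6, CSF1R and LTK, and the main test left them out. With no filter on low values the fit took in all 7: TIE1 was called higher (log2 fold change 3.04, adjusted p = 0.014), EPHB1 did not pass (2.39, adjusted p = 0.0682), nor did the other 5, and these fitted changes depend on the pseudocount. EPHB1, an EPHB receptor known from neural wiring, had 4, 7 and 16 reads in p27-positive libraries and 1, 1 and 0 reads in p27-negative libraries. Summed over the libraries and corrected for size factors, the ratio of p27-positive to p27-negative reads was 17.3 for TIE1 (38 and 2 reads, exact 95% interval 4.46 to 148) and 12.3 for EPHB1 (27 and 2 reads, interval 3.08 to 106). These intervals cover counting error only. No gene of the table held fewer than 10 reads over the 6 libraries. With 2 reads each in p27-negative cells, TIE1 and EPHB1 were listed only through their p27-positive reads. In both genes the libraries of the groups did not overlap, which holds for 11.4% of all genes below the filter in this direction and for 3.45% in the other, and an exact two-sided permutation test over the 6 libraries gave p = 0.1 for each, the smallest value that 3 against 3 allows. EPHA6 had 23 reads over the p27-positive libraries and 9 over the p27-negative ones, with overlapping values and a ratio of 2.32 (interval 1.04 to 5.70). EPHB2, EPHB3, CSF1R and LTK had between 8 and 25 reads per group, and the interval of each ratio included 1. CSF1, the ligand of CSF1R, was called higher, at 3213 ± 80.7 normalized counts in p27-positive cells and 2238 ± 101 in p27-negative cells (SD, n = 3 each), a log2 fold change of 0.52 ± 0.05 (adjusted p = 7.62e-11).

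Levels of different genes can be set side by side in FPKM, a read density per gene length and library size, which the authors deposited as well. The lengths behind these values are long for some genes, for example 18813 bases for FGFR2 and 15941 bases for EGFR against 4141 bases for EPHA2, which lowers the FPKM of the long ones. EPHA2 averaged 49.9 ± 0.412 FPKM in p27-positive cells and 69.5 ± 4.23 in p27-negative cells (SD, n = 3 each) and led in both groups. PTK7 came next in p27-positive cells with 34.9 ± 0.821 FPKM, against 20.0 ± 1.40 in p27-negative cells, where its values overlapped those of FGFR2 at 21.1 ± 0.566 and MET at 20.1 ± 1.19. In p27-positive cells FGFR2 averaged 24.2 ± 0.933 FPKM, DDR1 23.5 ± 0.466 and MET 23.4 ± 0.296, and these 3 levels did not differ beyond their spread. DDR1 averaged 9.63 ± 0.336 FPKM in p27-negative cells, below ERBB2 at 15.0 ± 0.696 and EPHB4 at 17.0 ± 0.682, whereas in p27-positive cells it lay above ERBB2 at 20.7 ± 0.340 and EPHB4 at 18.6 ± 0.658.

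The summed FPKM of the 35 genes was 293 ± 1.81 in p27-positive cells and 264 ± 5.12 in p27-negative cells (SD, n = 3 each), a ratio of 1.11 or 0.15 on the log2 scale. On the scale of library totals the median log2 fold change over the 15950 genes tested was 0.16. Shares within several families differed between the groups. MERTK held 55.5 ± 4.4% of the FPKM of the TAM genes in p27-positive cells and 37.5 ± 4.2% in p27-negative cells, and AXL held 25.6 ± 2.2% in p27-positive and 42.8 ± 3.2% in p27-negative cells. FGFR3 held 25.0 ± 0.71% of the FGFR sum in p27-positive cells and 15.6 ± 0.62% in p27-negative cells, while FGFR2 held 50.2 ± 0.80% in p27-positive cells and 58.4 ± 0.76% in p27-negative cells. In the ERBB family ERBB3 held 2.57 ± 0.29% in p27-positive cells and 4.82 ± 0.21% in p27-negative cells. EPHA2 held 72.2 ± 0.58% of the ephrin receptor sum in p27-positive cells and 80.0 ± 0.86% in p27-negative cells. The libraries of the groups did not overlap in any of these shares, and the exact permutation test over the 6 libraries gave p = 0.1 for each, the smallest possible value. A share also depends on the other genes of its family. FGFR1, called higher, held 17.9 ± 0.30% of the FGFR sum in p27-positive cells and 19.8 ± 0.91% in p27-negative cells. EPHB4 did not pass in the main test. It held 26.9 ± 0.96% of the ephrin receptor sum in p27-positive cells and 19.5 ± 0.96% in p27-negative cells. The libraries did not overlap in these shares either. Some other shares overlapped. TYRO3 held 18.9 ± 2.9% of the TAM sum in p27-positive cells and 19.7 ± 1.5% in p27-negative cells (exact permutation p = 0.7), FGFR4 held 6.97 ± 0.70% of the FGFR sum in p27-positive cells and 6.27 ± 0.79% in p27-negative cells (p = 0.3, exact), and MET held 94.3 ± 0.82% of the sum of MET and MST1R in p27-positive cells and 95.5 ± 0.53% in p27-negative cells (p = 0.2, exact).

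**Figure D4:**
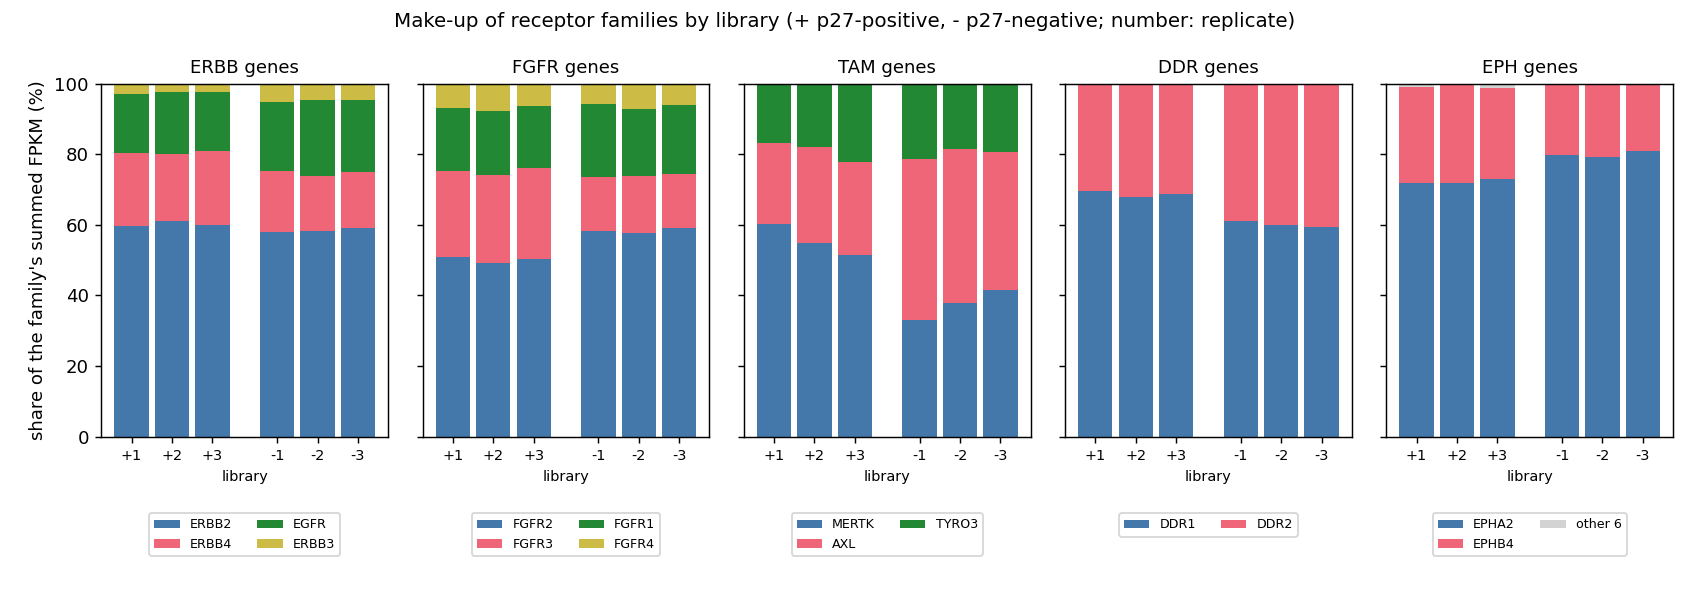
Share of each gene in the summed FPKM of its family, as stacked bars for the 3 p27-positive libraries (left in each panel) and the 3 p27-negative libraries (right). MERTK held 51.5 to 60.2% of the TAM sum in p27-positive and 33.1 to 41.4% in p27-negative libraries, and FGFR3 held 24.3 to 25.7% of the FGFR sum in p27-positive and 15.2 to 16.3% in p27-negative libraries.

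Around the receptors, 31 of 45 ligand genes found reached the filter, of which 15 were higher and 6 lower in p27-positive cells (48.4% and 19.4%, against 25.5% and 27.1% of all genes tested), with a median log2 fold change of 0.27 against 0.03 over all genes tested. Ligands called higher included, beside those above, GDF15, a stress-induced ligand of a RET co-receptor, at 685 ± 32.0 normalized counts in p27-positive cells and 186 ± 21.7 in p27-negative cells (SD, n = 3 each; log2 fold change 1.88 ± 0.13, adjusted p = 1.3e-15). MDK, the heparin-binding factor midkine, averaged 10385 ± 339 normalized counts in p27-positive cells and 8610 ± 56.4 in p27-negative cells, a log2 fold change of 0.27. Of 10 tested coreceptors 3 were higher and 4 lower, where 25.5% and 27.1% of all genes were, with a median of -0.01. SDC4, a syndecan that carries heparan sulphate and presents FGFs, averaged 36000 ± 823 normalized counts in p27-positive cells and 20604 ± 535 in p27-negative cells, a log2 fold change of 0.81 ± 0.03. SDC1, another syndecan, went down to 3431 ± 212 normalized counts in p27-positive cells, against 5118 ± 234 in p27-negative cells (-0.58 ± 0.05). SDC3 and IGF2R, the receptor that clears IGF2, were each higher by 0.43 on the log2 scale, and SORT1, the neurotrophin co-receptor sortilin, was lower with a change of -0.42.

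Of 30 tested adaptor and effector genes 7 were higher and 8 lower, which is 50% against the 52.6% of all genes, with a median log2 fold change of -0.01. PIK3R3, a regulatory subunit of PI3 kinase, had 5361, 5538 and 5690 normalized counts in p27-positive libraries and 830, 909 and 845 in p27-negative libraries, for a log2 fold change of 2.68 ± 0.06 (adjusted p = 3.62e-32). Its relative PIK3R1 averaged 6394 ± 198 normalized counts in p27-positive cells and 5963 ± 468 in p27-negative cells (SD, n = 3 each) and did not pass (adjusted p = 0.0525). With upper-quartile rescaling, with library total scaling and in the FPKM table PIK3R1 passed as higher. The SHC adaptors SHC2 and SHC3 were higher, with log2 fold changes of 2.94 ± 0.45 and 1.53 ± 0.18, and SHC3 averaged 362 ± 43.8 normalized counts in p27-positive cells and 126 ± 21.8 in p27-negative cells. IRS2, the docking protein of IGF1R and the insulin receptor, was lower, at 659 ± 19.4 normalized counts in p27-positive cells and 1257 ± 101 in p27-negative cells, a log2 fold change of -0.93 ± 0.08. PTPN11, the phosphatase SHP2 that links receptors to RAS, was lower as well (9235 ± 360 in p27-positive cells and 12713 ± 322 in p27-negative cells, -0.46 ± 0.04). STAT3 rose by 0.46 on the log2 scale, while CRKL and GRB2 had changes of -0.29 and -0.24, and the GRB2 call was lost under quantile normalization and in the FPKM table.

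Of 26 tested negative regulators and shedding proteases 9 were higher and 10 lower (34.6% and 38.5%, against 25.5% and 27.1% of all genes tested), with a median log2 fold change of 0.01. CBLB, a ubiquitin ligase that marks receptors for degradation, averaged 921 ± 32.7 normalized counts in p27-positive cells and 342 ± 36.3 in p27-negative cells (SD, n = 3 each), a log2 fold change of 1.43 ± 0.11 (adjusted p = 7.8e-15). Its relative CBL was lower, at 2148 ± 152 normalized counts in p27-positive cells and 2601 ± 98.5 in p27-negative cells, with a change of -0.28 that did not pass in the FPKM table. The phosphatases PTPN12, which acts on ERBB2 and other receptors, and PTPRF were lower, with changes of -0.96 ± 0.05 and -0.55 ± 0.04. Other phosphatases of the receptor type, PTPRK, PTPRS and PTPRG, were higher, with changes of 0.64 ± 0.04, 0.57 ± 0.05 and 0.32 ± 0.04. ERRFI1, the EGFR inhibitor MIG6, averaged 7002 ± 230 normalized counts in p27-positive cells and 8960 ± 124 in p27-negative cells (-0.36 ± 0.04). LRIG1 and LRIG2, membrane proteins of the LRIG family, the first known to restrain ERBB receptors, were higher with changes of 0.78 ± 0.12 and 0.80 ± 0.11. PTPN1 averaged 5490 ± 113 normalized counts in p27-positive cells and 5642 ± 66.4 in p27-negative cells and did not pass.

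**Figure D5:**
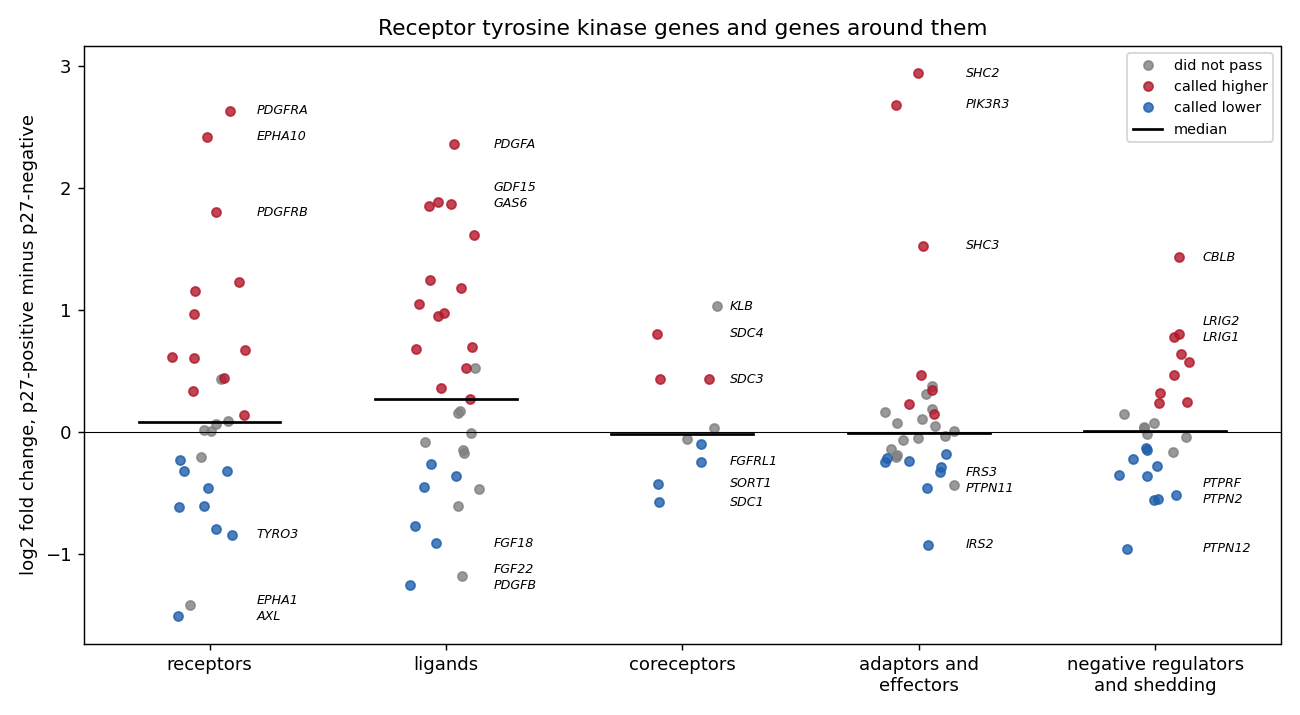
Log2 fold change (p27-positive minus p27-negative) of every tested gene of the receptors and of the 4 lists around them, with red for called higher, blue for called lower, grey for not passing and a black line for the median. The medians were 0.08 for receptors, 0.27 for ligands, -0.01 for coreceptors, -0.01 for adaptors and effectors and 0.01 for negative regulators and shedding; PIK3R3 and SHC2 stand at the top of the adaptor column.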

How the data were processed

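Poly(A) RNA of 6 CAL-51 libraries, 3 p27-positive and 3 p27-negative by their labels, was made with a stranded kit, per the labels' protocols. The submitters' processing notes name STAR, featureCounts, DESeq2 and build hg38. Tool versions, annotation release and strand setting were not stated there. The deposited signal used for the tests is, per the file headers, a gene's reads after division by the DESeq2 size factor of its library, called a normalized count here. FPKM values came from the authors as well, per the file headers. Each normalized count equalled a whole number of reads times 1 constant of its library (100% within a tolerance of 1e-06), so the reads could be recovered.

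The test was limma 3.58.1 (R 4.3.3, trended prior with 34.6 degrees of freedom, two-sided) on log2(normalized count + 1) for 15950 genes averaging 10 or more, group as the only term, Benjamini-Hochberg over all of them. On this scale the change of low genes depends on the pseudocount and on single libraries with few reads, and can come out too small or too large. Alternatives were edgeR 4.0.16 and DESeq2 1.42.0 on the recovered reads, other scalings, pseudocounts and filters, the FPKM table as log2(FPKM + 0.1) for genes averaging 0.5 or more, a replicate block, and leaving out each library. Low genes got exact binomial intervals and exact permutation tests (SciPy 1.17.1). Scripts were tested on simulated data.

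Receptor genes, lists of ligands, coreceptors, adaptors and negative regulators, and marker lists were chosen with earlier results of these data known. All receptor genes could be named; from each list up to 8 called genes with the smallest p and up to 2 abundant ones that did not pass were named, with ligands of named receptors. MDK, CBL and LRIG1 were added after their values were seen, and marker genes were named beside the results they move with.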

Additional observations from a re-analysis of the deposited data

How the results depend on the processing

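The 18 alternatives reversed no called change of a receptor gene, and single-gene values under these alternatives kept their call 460 times, lost it 19 times and gained one 18 times. Of the 21 called genes 14 kept call and direction in every alternative that tested them: EPHA2, ROR1, DDR2, EPHA10, ERBB4, FGFR3, PDGFRB, FLT4, PTK7, DDR1, TYRO3, ERBB2, AXL and LMTK3. Counts of receptor genes were 12 higher and 9 lower with edgeR and with DESeq2, 13 and 9 with quantile normalization, 15 and 8 with upper-quartile rescaling, 17 and 8 with the library total, 10 and 9 with a filter at 50, 9 and 9 without a trended prior, and 11 and 5 in the FPKM table. Over all genes the library total gave 5343 higher and 3114 lower and upper-quartile rescaling 5142 and 3267, where the main scaling gave 4067 and 4318, and the FPKM table called 2832 lower. In FPKM values, 4 adaptors, 2 coreceptors, 3 ligands and 4 negative regulators were lower and 11 adaptors higher. Quantile normalization gave 5 coreceptors higher, 2 coreceptors lower and 5 adaptors lower; the library total gave 2 and 5 lower, and upper-quartile rescaling and the fit without a trended prior 2 coreceptors lower. The cause was not tested. The median log2 fold change of the receptor genes was 0.21 with quantile normalization, 0.19 with upper-quartile rescaling, 0.21 with the library total, 0.17 in the FPKM table, and 0.32 with no filter, which adds the 7 low genes.

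Leaving out 1 library gave 10 to 12 receptor genes higher and 9 to 10 lower, and a median of 0.05 to 0.11. It gave 13 to 15 ligands higher and 6 to 7 lower, 2 to 4 coreceptors lower (2 without p27-negative replicate 2), 6 to 8 adaptors higher and 8 to 9 lower, 9 negative regulators in each direction, and 3496 to 3932 genes higher and 3989 to 4142 lower. Same-numbered replicates were not treated as pairs in the main test. The correlations of their deviations were 0.00898, -0.000512 and 0.0106, and those of other-numbered libraries ran from -0.0241 to 0.0156. No label names shared or separate cultures, so these values cannot settle whether libraries were paired. The fit with a replicate block called 12 receptor genes higher and 9 lower, and 4065 genes higher and 4330 lower. Depth limits the genes with few reads: TIE1 and EPHB1 had 2 reads each over the p27-negative libraries, and the interval of the TIE1 ratio ran from 4.46 to 148.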
